A study of Mus musculus with 6 samples.

Results

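NF-YA peaks annotated to long noncoding RNA (lncRNA) genes were examined in wild-type mouse muscle stem cells (MuSCs). Of 9056 unified CUT&RUN peaks, 480 (5.30%) carried an lncRNA biotype in the deposited annotation, which is 7.75% of the 6191 peaks with a gene. They fell on 390 genes. The cells were MuSCs of C57BL/6 mice, wild type, grown in culture and described as activated or proliferating. In CUT&RUN, permeabilised cells held on lectin-coated beads receive an antibody and a protein A nuclease that releases the DNA around the target. There were 3 libraries with an antibody against NF-YA and 3 with control mouse IgG. The values below are those of the 3 NF-YA libraries, and IgG values were not analysed here. All values come from cultured cells of 1 genotype, so no condition is compared, and the table holds no expression by which the identity of the cells could be checked.

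NF-Y is a heterotrimer of NF-YA, NF-YB and NF-YC. The B and C subunits pair through histone folds, and NF-YA contacts the CCAAT box, a promoter element that usually lies a short way upstream of the transcription start site (TSS). In muscle, NF-YA is present in proliferating progenitors and is lost as they differentiate. lncRNAs are transcripts without a long reading frame. Some host small nucleolar RNAs (snoRNAs) or microRNAs in their introns, some organise nuclear bodies or silence neighbouring genes, and for most no role is known.

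The 480 peaks comprised 263 at lincRNA genes, which lie between coding genes, and 143 at antisense genes, which overlap a coding gene on the other strand. A further 52 were at processed_transcript genes, 20 at sense_intronic genes, 1 at a sense_overlapping gene and 1 at a bidirectional_promoter_lncRNA gene. The biotypes 3prime_overlapping_ncRNA and macro_lncRNA had 0 peaks. Of the 390 genes, 316 had 1 peak, 60 had 2, 12 had 3 and 2 had 4. The table gave no symbol for any of the 480 peaks, and names were taken from GENCODE M21 by gene identifier, which matched for all 480. The annotation step put coding genes first. A peak centre had no coding gene start within 10000 bp in 479 of the 480, the exception being *Gm15541* beside *Prx*. Conversely, 460 of 5173 protein-coding peaks (8.89%) had an lncRNA gene start within 1000 bp, and in 215 of these 460 the lncRNA start was nearer than that of the coding gene. The 480 peaks are therefore those at lncRNA genes standing apart from coding gene starts, and lncRNA genes that share a promoter with a coding gene are mostly outside them.

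To show the sequence under the strongest of these peaks, the CCAAT boxes are printed first. Which of the boxes NF-YA occupied was not tested. All 15 of the strongest peaks held at least 1 CCAAT within the peak, and 11 held 2 or more. Of all 9056 peaks 64.5%, and of the 480 57.7%, held CCAAT somewhere in the peak. The share with 2 or more was not counted over all peaks or over the 480. These 15 peaks were 319 to 659 bp long, against a median of 179 bp for the 480, and the part of peak length was not tested. Sequences are from mm10, 5′ to 3′ on the strand of the lncRNA gene, with each CCAAT in capitals (ATTGG where the box lies on the other strand) and 12 bases on either side of the outermost boxes shown. The peaks of *1700096K18Rik*, *1810026B05Rik*, *Gm6712*, *Gm5165* and *BC002059* held 1 further box each outside the stretch shown. Positions relative to a TSS refer to the first base of a box. The stretch reaching 50 bp to each side of a peak centre is termed the central window, and 12 of the strongest 15 and 52.7% of all 9056 peaks held CCAAT there.

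The strongest peak belonged to *AC125101.1*, an antisense gene (chr19:44248357-44248424, minus strand). Its boxes began at -1842 and -1803 bp from the gene start, 39 bp apart and in the same orientation. The lincRNA *1700096K18Rik* (chr5:25529647-25529754, plus strand) had 3 boxes in 1 orientation, from -354 to -275 bp. *1810026B05Rik*, a processed transcript (chr7:73558682-73558816, minus strand), showed 4 boxes, of which 2 lay on each strand. The boxes of *4833417C18Rik* (chr11:95858722-95858852, plus strand) began at -131 and -29 bp.
AC125101.1: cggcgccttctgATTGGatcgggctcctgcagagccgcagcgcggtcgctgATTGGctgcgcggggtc
1700096K18Rik: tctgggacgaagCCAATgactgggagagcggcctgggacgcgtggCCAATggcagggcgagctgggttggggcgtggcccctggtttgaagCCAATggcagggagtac
1810026B05Rik: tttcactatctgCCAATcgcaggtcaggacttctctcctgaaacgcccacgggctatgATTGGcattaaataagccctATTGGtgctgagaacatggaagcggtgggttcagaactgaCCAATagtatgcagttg
4833417C18Rik: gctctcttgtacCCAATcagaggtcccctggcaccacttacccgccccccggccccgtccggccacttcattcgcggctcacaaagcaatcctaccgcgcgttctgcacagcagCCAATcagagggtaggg

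Among lncRNAs with a described role, *Kcnq1ot1* silences imprinted neighbours in cis from within *Kcnq1*, and its transcript is antisense to that gene. Its promoter (chr7:143296598-143296747, minus strand) had 3 boxes, all on the gene's strand, the first at -186 bp and the last at -65 bp. The snoRNA host *Dancr* (chr5:74092936-74093053, plus strand) had 3 boxes on the other strand, from -112 to -23 bp. *Malat1*, the abundant RNA of nuclear speckles, had its boxes far upstream (chr19:5812259-5812327, minus strand), at -9643 and -9603 bp, 40 bp apart. Single boxes stood at -53 bp in the snoRNA host *Snhg8* (chr3:123508441-123508469, minus strand) and at -82 bp in the imprinted *H19* (chr7:142578209-142578237, minus strand), the latter on the other strand.
Kcnq1ot1: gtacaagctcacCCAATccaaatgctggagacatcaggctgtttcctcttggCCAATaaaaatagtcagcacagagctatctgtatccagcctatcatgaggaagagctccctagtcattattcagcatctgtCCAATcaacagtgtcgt
Dancr: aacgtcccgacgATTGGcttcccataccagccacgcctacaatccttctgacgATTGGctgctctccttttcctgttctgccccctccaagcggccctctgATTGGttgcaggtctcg
Malat1: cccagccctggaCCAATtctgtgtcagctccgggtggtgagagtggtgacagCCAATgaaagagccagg
Snhg8: gccgcctgtacaCCAATcaaagtgacgag
H19: ggccatgtactgATTGGttgacagagtag

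*Gm6712*, *Gm5165* and *BC002059* on chromosome 17 are shown together because their promoters are near copies. Over 300 bp at the peak centres, *Gm5165* and *BC002059* were 93.9% identical, *Gm6712* and *Gm5165* 93.3% and *Gm6712* and *BC002059* 92.8%. Each of these 3 stretches (chr17:17294169-17294296, chr17:17234613-17234732 and chr17:16951298-16951415, plus strand) held 1 ATTGG and 1 CCAAT, 99, 91 and 89 bp apart, respectively.
Gm6712: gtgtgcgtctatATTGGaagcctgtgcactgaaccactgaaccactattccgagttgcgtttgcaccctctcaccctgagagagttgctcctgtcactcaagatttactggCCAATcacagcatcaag
Gm5165: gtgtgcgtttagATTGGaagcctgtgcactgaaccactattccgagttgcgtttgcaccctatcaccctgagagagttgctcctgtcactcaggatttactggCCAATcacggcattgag
BC002059: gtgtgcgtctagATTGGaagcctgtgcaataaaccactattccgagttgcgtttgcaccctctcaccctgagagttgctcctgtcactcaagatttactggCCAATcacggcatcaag

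Values are size-factor-normalised read counts per peak, which the authors rounded, and are given as normalised reads. No allowance is made for the length of a peak. Judged by the steps between the whole values, 1 read was worth about 0.66, 1.48 and 1.02 normalised reads in replicates 1, 2 and 3. All peaks together then held about 481469, 226924 and 334651 reads, of which 14350, 6968 and 9960 lay in lncRNA peaks. The lncRNA peaks thus had 2.98%, 3.07% and 2.98% of the summed values in replicates 1, 2 and 3. At a floor of 3 reads, or 1.99, 4.43 and 3.06 normalised reads, 2, 82 and 43 of the 480 peaks were no higher than the floor. For a peak at the lncRNA median, counting alone gives a coefficient of variation (CV) of 24.6%, 35.1% and 29.1% in the 3 libraries. Intervals and floors cover counting error only.

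The strongest 15 lncRNA peaks stood far above the lncRNA median of 11 to 12 normalised reads in every library. *AC125101.1* had 189, 242 and 281 normalised reads in replicates 1, 2 and 3 (mean 237 ± 46.2, SD, n = 3), which was rank 174 among all 9056 peaks. *1700096K18Rik* had 204, 198 and 200 (201 ± 3.06), the closest agreement among the strongest 15. *1810026B05Rik* had 182, 161 and 195 (179 ± 17.2). The centres of these peaks were 10636 bp from the nearest *Scd3* transcript start, 13630 bp from *Cct8l1* and 16938 bp from *Chd2*, respectively, and none lay inside a coding gene. All 15 of the strongest peaks had their nearest coding transcript start more than 10000 bp away. As 479 of the 480 had no coding gene start within 10000 bp, this is not particular to the strongest peaks. The share of the 480 by transcript start was not counted. Of the 15, 10 were within 1000 bp of the start of their lncRNA gene.

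The near copies on chromosome 17 shared a pattern over the libraries. *Gm6712* had 102, 160 and 201 normalised reads, *Gm5165* had 73, 132 and 113, and *BC002059* had 78, 102 and 127. Replicate 1 was the lowest library at each of the 3 promoters. Per the study's reporting summary, replicate 1 was sequenced with shorter reads than replicates 2 and 3, and only uniquely placed reads were kept. The part of read length in these values was not tested. A read that fits more than 1 copy would have been left out, so the separate levels of the copies are uncertain. Replicate 1 was also the lowest at 8 of the strongest 15 peaks, these 3 included, and the share over all peaks was not counted.

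Other strong peaks lay beyond 1000 bp of the start of their gene. *5430402P08Rik* (peak at chr7:111367253-111367633) had 127, 143 and 110 normalised reads 1145 bp downstream of its start, with 1 CCAAT, and the nearest coding transcript start, that of *Eif4g2*, was 284412 bp away. *C030013C21Rik*, a sense_intronic gene within *Myo1d*, had its strongest peak (chr11:80499581-80499977) past the end of the gene, 9327 bp from the start, with 75, 115 and 124. The same gene had 29, 38 and 27 at a peak 174 bp from its start, and its remaining peak, 9820 bp from the start, had 11, 10 and 22. The strongest peak was higher in every library than either of the others. *Gm12610* (peak at chr4:89427960-89428330), 117105 bp from *Cdkn2b*, had 106, 114 and 91 inside the gene, and its central window held both CCAAT and the AP-1 site TGACTCA.

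**Figure D1:**
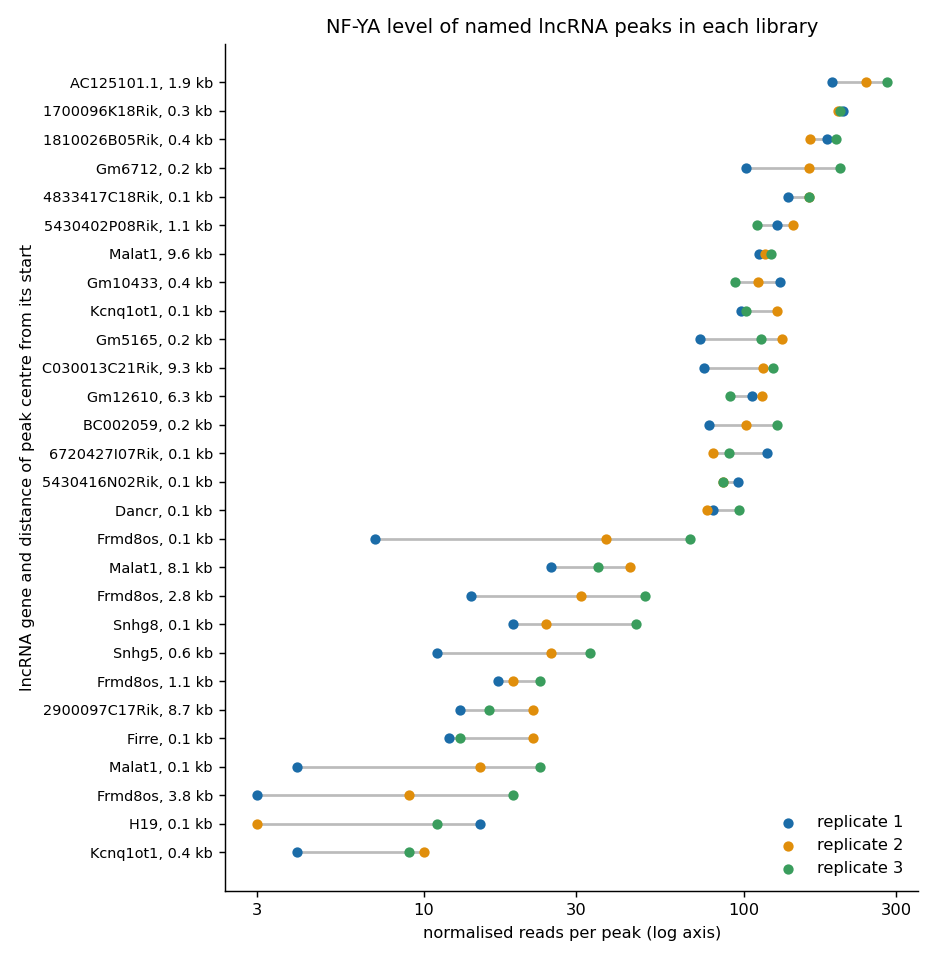
Normalised reads per peak (log axis) in each of the 3 NF-YA libraries for the strongest 15 lncRNA peaks, the peaks of listed lncRNA genes and the 4 peaks of Frmd8os, labelled with how far the centre of the peak is from the gene start in kb. The 3 libraries lie close together for 1700096K18Rik (204, 198 and 200) and the upstream Malat1 peak (112, 117 and 122) and far apart for the Frmd8os peak nearest its start (7, 37 and 68).

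Of the 69 genes on 7 lists of lncRNAs with described roles, 63 were in GENCODE M21. *Snhg11* and *Sra1* are typed there as protein-coding, so these 2 could not carry an lncRNA peak. Of the 63, 8 had an annotated peak, 9 had a start within 1000 bp of a peak that carried another gene's name, and 46 had no peak within 1000 bp of their start. The snoRNA hosts contributed 3 annotated genes out of 21 (18 in M21). The nuclear architecture and X inactivation list had 2 of 7 and the imprinted list 2 of 9. The muscle list had 2 of 7 (6 in M21) and the growth control and DNA damage list 1 of 9. The lists of 13 microRNA hosts (11 in M21) and 14 developmental lncRNAs had 0, and some genes are on more than 1 list. The share over all lncRNA genes was not counted, so these counts are not known to be high or low. *Dancr*, which is linked to keeping progenitors undifferentiated, was the strongest of these 3 snoRNA hosts with 80, 77 and 97 normalised reads (84.7 ± 10.8, SD, n = 3). *Snhg8* had 19, 24 and 46 and *Snhg5* 11, 25 and 33, each lower in every library than *Dancr*. The *Dancr* and *Snhg8* peaks were centred 84 and 92 bp from the gene starts and covered the boxes printed above.

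The imprinted *Kcnq1ot1* and *H19* differed widely in level. *Kcnq1ot1* had 98, 127 and 102 normalised reads at the peak over its 3 boxes, and a second, weaker peak 449 bp upstream of the start, without CCAAT, had 4, 10 and 9. *H19*, which is abundant in fetal muscle and hosts a microRNA, had 15, 3 and 11 at its promoter, which holds 1 CCAAT, and replicate 2 was below the floor of 3 reads. *Firre*, an X-linked RNA of nuclear organisation, had 12, 22 and 13 at a peak 82 bp upstream of its start (chrX:50635312-50635495). That peak held no CCAAT, and its centre held the E-box CACGTG. *2900097C17Rik* had 13, 22 and 16 at a peak 8668 bp upstream of its start, with CAGCTG in the central window.

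Starts of other well-known lncRNAs lay at peaks named for a neighbour. The microRNA host *Mir22hg* started 154 bp from a peak named for *Tlcd2* with 236, 297 and 268 normalised reads. The snoRNA host *Snhg10* started 239 bp from a *Glrx5* peak with 295, 288 and 335. Both peaks exceeded every peak annotated to an lncRNA gene in at least 1 library, and both held CCAAT. *Tug1* started 129 bp from a *Morc2a* peak with 42, 49 and 51, again with CCAAT. The snoRNA hosts *Gas5* (5, 27 and 27, named *Zbtb37*), *Snhg1* (11, 21 and 21, named *Slc3a2*), *Snhg9* (15, 22 and 33, named *Rps2*) and *Zfas1* (3, 12 and 12, named *Znfx1*) had no CCAAT in the central window, and replicate 1 was lowest at all 4. For these shared promoters the values do not tell which gene the bound NF-YA belongs to.

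The region of *Malat1* and *Neat1* held 7 lncRNA peaks, 3 named for *Malat1* and 4 for *Frmd8os*. The strongest, 9591 bp upstream of the *Malat1* start, had 112, 117 and 122 normalised reads over 358 bp (117 ± 5.0, SD, n = 3). A peak 8123 bp upstream had 25, 44 and 35, and the peak at the start itself had only 4, 15 and 23. The upstream peak was thus higher in every library than either of the others, whose ranges did not reach it. It was the only 1 of the 7 with CCAAT in its central window, and the 8123 bp peak held the E-box CAGCTG there.

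*Neat1*, the scaffold RNA of paraspeckles, had 0 peaks under its own name, but the first *Frmd8os* peak (chr19:5845404-5845702) lay 74 bp upstream of the *Neat1* start and 70 bp from the *Frmd8os* start, since the pair is divergent. It had 7, 37 and 68 normalised reads. The other *Frmd8os* peaks had 17, 19 and 23 at 1135 bp, 14, 31 and 49 at 2842 bp and 3, 9 and 19 at 3822 bp inside the gene. No CCAAT was found in any of these 4 peaks over their whole length. Replicate 1 was the lowest and replicate 3 the highest library at all 4 and at the *Malat1* start, whereas the peak over the CCAAT boxes differed little between libraries.

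**Figure D2:**
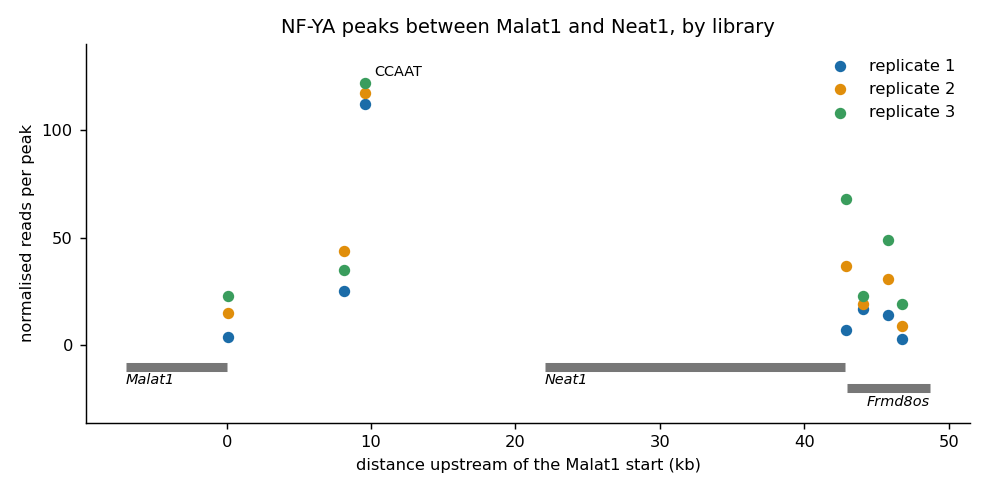
Normalised reads in the 3 NF-YA libraries at the 7 lncRNA peaks against the distance upstream of the Malat1 start in kb, with grey bars for the Malat1, Neat1 and Frmd8os genes. The peak at 9.59 kb, marked for CCAAT in its central window, stands at 112 to 122 in all libraries, and the 4 peaks from 42.9 kb on range from 3 to 68.

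Genes with 3 or more peaks numbered 14 and held 44 of the 480 peaks. In the central window 12 of the 44 had CCAAT and 11 had CAGCTG, against 48.8% and 20.4% of the 480. Over the whole peak, 18 of the 44 had CCAAT, against 57.7% of the 480. At genes with more than 1 peak 39.6% of central windows held CCAAT, and at genes with 1 peak 53.5%. The lincRNA *1700025L06Rik* is the one upstream of *Myod1*, the master regulator of the myogenic lineage. Its 3 peaks lay 34853, 26091 and 23015 bp upstream of the *Myod1* start, with 45, 41 and 39, then 29, 21 and 27, then 22, 12 and 35 normalised reads. None had CCAAT in the central window, but the outer pair each held 1 CCAAT elsewhere in the peak. The same pair each held the E-box CAGCTG, recognised by myogenic factors such as MyoD, the first within and the second outside the central window. Both E-boxes are printed in capitals on the minus strand of mm10 (chr7:46341626-46341655 and chr7:46353390-46353419). The motif CAGCTG is a palindrome, and 15.1% of all 9056 peaks held it in the central window. Its share over whole peaks was not counted. Stronger peaks not named for this lincRNA also lay near *Myod1*. A peak without a gene, 38947 bp upstream of *Myod1*, had 284, 294 and 319 normalised reads. The *Myod1* peak 53 bp upstream of its start had 54, 44 and 58. Each of these held CCAAT in the central window.
1700025L06Rik, peak 34853 bp upstream of Myod1: gatctgaggcaaCAGCTGctgggctggcag
1700025L06Rik, peak 23015 bp upstream of Myod1: aagacccaggaaCAGCTGactctgggcgcc

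Several lncRNA peaks stood at a coding transcript that begins inside its gene, away from the 5′ end of the gene. Within 1000 bp of some coding transcript start were 34 of the 480 (7.08%), and 23 of these 34 were named for an antisense gene. The *Gm11465* peak (chr2:165884571-165884896), with 74, 69 and 55 normalised reads, was centred 18 bp from a transcript start of *Zmynd8*, which encodes a reader of histone marks, and had 3 CCAAT boxes. The *Gm44140* peak, the only bidirectional one, had 32, 52 and 38 and was 70 bp from a start of *Atf7ip*. The *D530037P16Rik* peak, the only sense_overlapping one, had 46, 74 and 51 within *Col24a1* and was 94495 bp from the nearest coding start.

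To determine how far binding at lncRNA genes resembled binding at promoters, peaks were termed promoter peaks when the centre was within 1000 bp of the annotated gene's start. This held for 136 of 480 lncRNA peaks (28.3%) and for 68.3% of protein-coding peaks, a difference of -40.0 percentage points (95% Newcombe interval -44.0 to -35.6). Because naming put coding genes first, 460 peaks within 1000 bp of an lncRNA start are counted here as coding. The difference therefore depends on the naming rule and does not describe lncRNA starts in general. The median distance was 3302 bp for lncRNA and 191 bp for coding peaks. Among biotypes with at least 20 peaks, processed_transcript genes had the highest share, 27 of 52 (51.9%), beside 68 of 263 lincRNA peaks (25.9%), 39 of 143 antisense peaks (27.3%) and 1 of 20 sense_intronic peaks. Of the 136 promoter peaks, 85 were centred upstream of the start. Of the other 344, 162 were upstream, 114 inside the lncRNA gene and 68 past its end. By coding annotation, 139 of the 480 centres were in introns of coding genes, 24 in exons and 317 outside, and 115 of the 143 antisense peaks were inside a coding gene.

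lncRNA peaks were low compared with coding peaks. Their median was 11, 12 and 12 normalised reads in replicates 1, 2 and 3, against 21, 22 and 22 for coding peaks, a log2 ratio of -0.89 ± 0.03 (SD, n = 3). Promoter peaks of lncRNA genes had 15, 16 and 16, against 31, 30 and 32 for coding promoters, a log2 ratio of -0.98 ± 0.07. Coding-named peaks with an lncRNA start within 1000 bp had 30, 28 and 31, and lncRNA promoter peaks were lower than these by a log2 ratio of -0.92 ± 0.10. Each ratio kept its sign in all 3 libraries. lncRNA peaks were also shorter, with a median of 179 bp against 226 bp, and per kb of peak the overall ratio was -0.56. With 3 libraries a two-sided exact sign-flip permutation test cannot give a p below 0.25, which it gave for 9 of the 10 level comparisons made (0.278 after Benjamini-Hochberg adjustment over the 10).

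Within the lncRNA peaks, promoter peaks exceeded the other 344, whose medians were 10, 12 and 11, by a log2 ratio of 0.51 ± 0.09 (SD, n = 3), and by 0.24 per kb of peak. Coding peaks beyond 1000 bp had 12, 13 and 13, and the 344 were lower than these in every library, by a log2 ratio of -0.21 ± 0.08. In replicate 2 the medians differed by less than the value of 1 read, about 1.48 normalised reads. With a mean of at least 10 this ratio was -0.15 ± 0.15 (exact sign-flip permutation p = 0.5, n = 3), no larger than its spread. Peaks without a gene had 10, 10 and 10, from which the 344 differed by a log2 ratio of 0.13 ± 0.13 (exact sign-flip permutation p = 0.5, n = 3), which was as large as its spread. Peaks inside the lncRNA gene had medians of 12, 15 and 13, those upstream 9, 10 and 10.5, and those past the gene end 10.5, 10 and 10. Antisense peaks had 11, 12 and 12, lincRNA peaks 11, 12 and 11, and processed_transcript peaks 12.5, 15.5 and 12. The antisense and lincRNA medians were equal in 2 libraries, and processed_transcript peaks were above lincRNA peaks in all 3.

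The 8 promoter peaks with a coding transcript start within 1000 bp had a higher median than the 128 without, by a log2 ratio of 0.69 ± 0.17. They include *Hk1os* beside *Hk1*, the gene of a hexokinase, with 48, 46 and 50 normalised reads, and *Gm28536* beside *Stk25* with 9, 10 and 12. When weaker peaks, with means under 10, were left out, the ratio was -0.0061, and with a limit of 500 bp it was 0.10. The direction of this comparison thus changed with the filter on weak peaks.

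**Figure D3:**
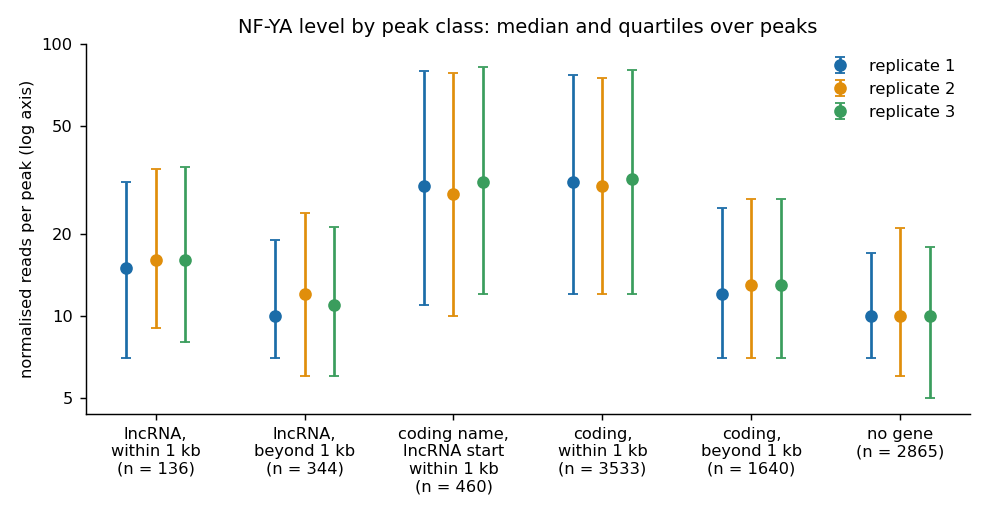
Median normalised reads per peak (points) and quartiles over peaks (bars) on a log axis for 6 classes of peaks in each of the 3 NF-YA libraries. lncRNA promoter peaks (15, 16 and 16) lie between coding promoter peaks (31, 30 and 32) and peaks without a gene (10, 10 and 10).

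To find out whether lncRNA peaks carry the NF-Y element, CCAAT was searched on both strands of the central windows. It was present in 234 of 480 (48.8%, 95% Wilson interval 44.3 to 53.2). Windows of the same length 1000 bp to either side held it in 13.5% and 12.9%. Coding peaks held it in 58.9%, so lncRNA peaks were 10.1 percentage points lower (difference -10.1, Newcombe interval -14.8 to -5.45). At promoters the shares were 55.1% and 65.2%, a difference of -10.1 with an interval of -18.6 to -1.84. Beyond 1000 bp they were 46.2% for lncRNA and 45.1% for coding peaks, with an interval of the difference of -4.63 to 6.90. Peaks without a gene had 44.0%, and coding-named peaks with an lncRNA start within 1000 bp had 65.7%. A longer box, CCAAT followed by CA, CG, GA or GG, was found in 31.7% of lncRNA and 43.3% of coding peaks. At promoters the longer box was in 42.6% and 48.7%, and the interval of that difference, -14.3 to 2.47, included 0.

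The share with CCAAT rose with the level of NF-YA. In quartiles of the mean level over all 9056 peaks, it was 39.9%, 44.1%, 53.0% and 69.2% from the weakest to the strongest lncRNA peaks, and the strongest exceeded the weakest by 29.4 percentage points (interval 14.7 to 42.0). Coding peaks went from 36.4% to 74.7%. Within the third quartile lncRNA peaks were lower by an interval that excluded 0 (-18.0 to -0.45), and in the other quartiles the intervals included 0. Only 65 lncRNA peaks (13.5%) were in the highest quartile and 138 (28.8%) in the lowest. Peaks with CCAAT were higher than those without by a log2 ratio of 0.54 ± 0.15 (SD, n = 3) among lncRNA peaks and 1.28 ± 0.06 among coding peaks. The lncRNA ratio was the smaller in all 3 libraries (difference -0.74 ± 0.20), and with a mean of at least 10 it was 0.30.

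**Figure D4:**
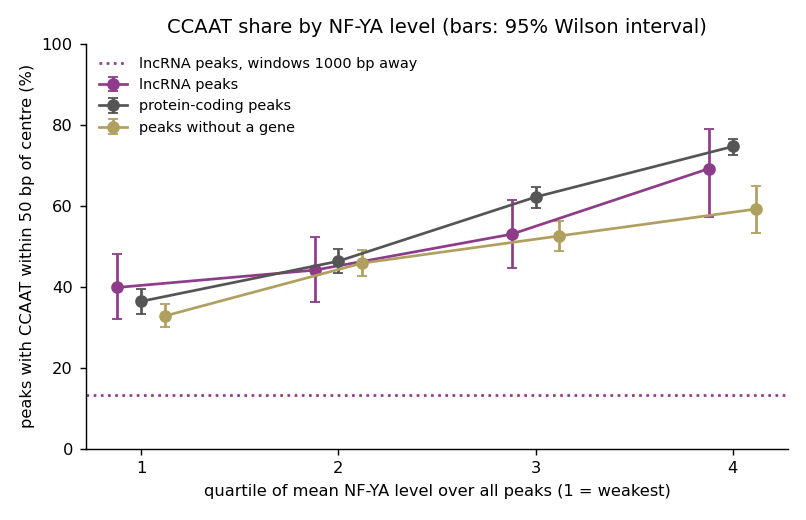
Percentage of peaks with CCAAT within 50 bp of the centre against the quartile of mean NF-YA level over all peaks, with 95% Wilson intervals. lncRNA peaks go from 39.9% to 69.2% and coding peaks from 36.4% to 74.7%, and the dotted line is the mean of the windows 1000 bp to either side of lncRNA peaks.

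Of the boxes found within promoter peaks, a smaller share lay just upstream of the annotated start at lncRNA than at coding genes. Over the whole length of the 136 promoter peaks, 135 boxes were found in 86 peaks, with a median position of -74 bp from the start. In the 150 bp upstream of the start lay 39.3% of them (95% interval 31.4 to 47.7), against 53.7% (52.5 to 55.0) at coding promoters, where the median was -64 bp. These intervals treat boxes as separate, although several can lie in 1 peak, so they may be too narrow. Boxes were searched only within peaks, so their positions depend on where the peaks lie. Within 500 bp of the start were 99 of the 136 lncRNA and 3199 of the 3533 coding promoter peaks. Some peaks also lay at another transcript start of their gene, as at *Snhg5*, 600 bp from the gene start and 33 bp from a transcript start. The part of either in the box positions was not tested. Orientation was even at lncRNA and coding promoters, with 53.3% and 51.0% on the strand of the gene. More than 1 box was present in 22.8% of lncRNA and 44.2% of coding promoter peaks. The coding promoter peaks were longer, with a median of 254 bp against 199.5 bp, and the part of peak length was not tested.

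GC boxes were less frequent, and the CAGCTG and AP-1 motifs more frequent, at lncRNA than at coding peaks. The GC box GGGCGG, bound by Sp factors, was in 9.38% of lncRNA and 32.3% of coding windows (difference -22.9, interval -25.5 to -19.7), and in 18.4% and 40.2% at promoters. The windows of lncRNA promoters were also less rich in G and C, with 55.6% against 60.9%, and the part of base composition was not tested. The E-box CAGCTG was in 20.4% of lncRNA and 9.47% of coding windows (difference 10.9, interval 7.48 to 14.9), beside 5.63% and 5.83% in the windows 1000 bp to either side of lncRNA peaks. The AP-1 site TGACTCA was in 11.9% and 5.20% (difference 6.67, interval 4.00 to 9.93), and 2.08% in either flank. The E-box CACGTG, bound by USF and Myc, was in 3.33% and 3.89%, with an interval of the difference of -1.94 to 1.52. Of all peaks, 21.2% held GGGCGG, 15.1% CAGCTG, 9.73% TGACTCA and 3.18% CACGTG.

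The excess of CAGCTG was present at lncRNA promoters too, with 14.7% against 5.41% at coding promoters (interval of the difference 4.26 to 16.3), and so was that of TGACTCA, with 8.82% against 1.87% (3.22 to 12.9). The 460 coding-named peaks with an lncRNA start within 1000 bp held CAGCTG in 4.57%, TGACTCA in 1.09% and GGGCGG in 42.4%. The excess of CAGCTG and TGACTCA was thus not seen at lncRNA starts whose peak carried a coding name. Beyond 1000 bp, lncRNA peaks and peaks without a gene had CAGCTG in 22.7% and 23.3% and GGGCGG in 5.81% and 5.72%, and both intervals of the difference included 0. Against coding peaks beyond 1000 bp, GGGCGG was lower by 9.31 percentage points (difference -9.31, upper bound -5.89). For the other motifs the intervals of that difference included 0. CAGCTG was in 22.7% of lncRNA and 18.2% of coding peaks beyond 1000 bp (-0.10 to 9.49), and TGACTCA in 13.1% and 12.4% (-2.88 to 4.95). Among lncRNA peaks, CAGCTG was in 29 of 234 windows with CCAAT and in 69 of 246 without. Neither CCAAT nor CAGCTG nor TGACTCA was found in 144 of the 480 windows.

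**Figure D5:**
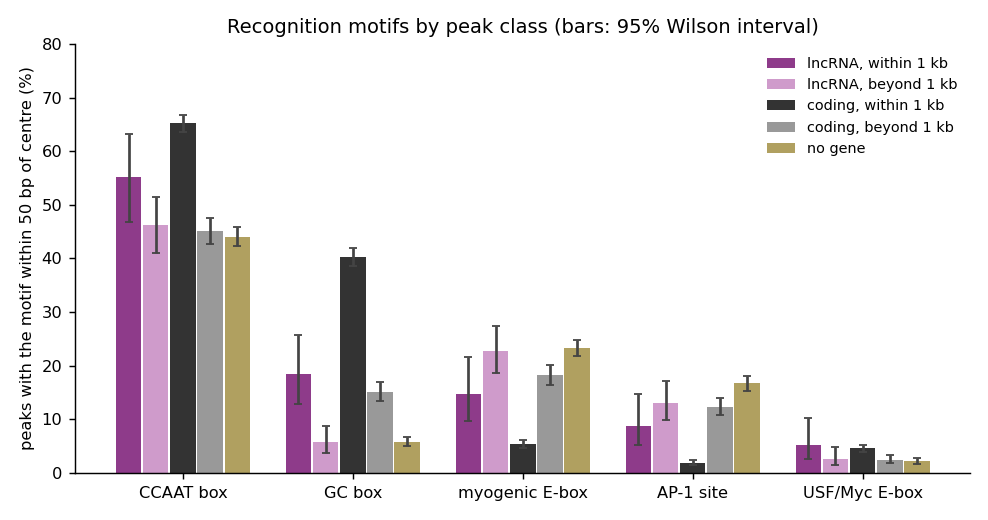
Percentage of peaks with each motif within 50 bp of the centre, by class of peak, with 95% Wilson intervals (CCAAT box, CCAAT; GC box, GGGCGG; myogenic E-box, CAGCTG; AP-1 site, TGACTCA; USF/Myc E-box, CACGTG). lncRNA promoter peaks have the GC box in 18.4% against 40.2% at coding promoters, and CAGCTG in 14.7% against 5.41%.

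The spread between libraries was wider at lncRNA than at coding peaks, and their levels were lower. The median CV was 28.6% for lncRNA and 21.3% for coding peaks. Within the weakest quartile of level both were 40.0%. In the second they were 32.8% and 30.3% and in the third 24.2% and 23.4%, with overlapping intervals of the medians. In the strongest they were 19.5% and 13.0%, with intervals of 14.7 to 23.4 and 12.6 to 13.5. Levels were not matched within a quartile. Across the 480 peaks, Pearson's r of log2(value + 1) between libraries was 0.78 to 0.84, and 0.91 to 0.93 across coding peaks, as a description over peaks that share their libraries. Of the 280 lncRNA peaks whose mean reached 10, 28 were more than 2-fold higher in replicate 3 than in replicate 1 and 9 more than 2-fold lower. Replicate 2 stood above replicate 1 in this way at 30 and below at 13. The same was not counted over coding or all peaks, so these counts are not known to be particular to lncRNA peaks. The peaks at the starts of *Malat1*, *Frmd8os*, *Snhg8* and *Snhg5* were among the 28.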

How the data were processed

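The authors trimmed reads with Trimmomatic 0.39, aligned them to mm10 with STAR 2.7.9a, removed duplicates with Picard 2.25.5 and kept uniquely mapped, unspliced reads. The authors then found peaks against IgG, unified them over samples, counted reads with featureCounts, normalised with DESeq2 1.30.0 and, per the study's reporting summary, annotated peaks with the nearest gene by promoters reaching 10000 bp around the start. In the table a coding gene was named also where an lncRNA start was nearer (346 of 5173 coding peaks). The deposited values are scores, namely size-factor-normalised counts that the authors rounded. Scaling by size factors hides any change common to all peaks. The libraries that give the levels also served to find the peaks. The table had 0 unassigned value columns. It held no IgG values, so the comparison with IgG was not run.

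Members were taken by biotype. Genes, starts and exons came from GENCODE M21, whose gene coordinates were identical for 478 of the 480 peaks, and sequence from RefSeq GRCm38.p6. The reporting summary names an Ensembl release for the alignment, and only Ensembl data for the annotation of peaks. Replicates are biological per the study's reporting summary, while the labels name no separate cultures or animals, so p-values measure only the spread between these samples. Level ratios are differences of log2 medians per library, tested by two-sided exact sign-flip permutation. Shares have 95% Wilson intervals, which treat peaks, or boxes for box positions, as separate. The peaks named were the 15 strongest, the 3 strongest of each biotype, the 8 strongest without a coding transcript start within 5000 bp, genes with at least 3 peaks, and listed genes (snoRNA hosts, microRNA hosts, nuclear architecture and X inactivation, imprinted, muscle, growth control and DNA damage, developmental). Members, lists and rules were chosen with earlier results of these data known, and 83 alternatives were run. Python 3.11.15, numpy 2.4.6, scipy 1.17.1, pandas 2.3.3, pysam 0.24.0, Biopython 1.88 and matplotlib 3.10.9 were used, and functions were tested on simulated data. Values of some peaks that the naming rule covers are not reported here.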

Additional observations from a re-analysis of the deposited data

How the results depend on the processing

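Of 83 alternatives over 15 results, 54 stayed within the spread or interval of the reported value, 28 moved beyond it and 1 reversed. Those on the comparisons within and beyond 1000 bp, with peaks without a gene and with shared starts, and by CCAAT, and any transcript start of the gene, were chosen after seeing the data. The log2 ratio of lncRNA to coding peaks was -0.56 per kb, -0.75 with a mean of at least 10 and -1.18 with the strongest peak per gene. At promoters it was -0.68 per kb, -0.83 with the mean limit and -1.08 with a limit of 500 bp. With against without a coding transcript start it reversed to -0.0061 with the mean limit and was 0.10 with a limit of 500 bp. Restricting that comparison to coding gene starts left no peak to compare. Promoter against other lncRNA peaks gave 0.24 per kb and 0.31 with the mean limit, and against coding-named peaks at lncRNA starts -0.65 per kb. With against without CCAAT gave 0.39 per kb and 0.30 with the mean limit for lncRNA, 0.79 and 0.79 for coding peaks, and -0.41 and -0.49 for their difference. Promoter shares were 20.6% at 500 bp and 66.9% at 5000 bp. The share with a coding transcript start was 12.7% within 5000 bp and 0% with gene starts only. CCAAT shares were 58.3% with 100 bp to each side, 57.7% in the whole peak, 31.7% for the longer box and 54.3% with the mean limit, while the difference from coding peaks stayed below 0 in all 5 alternatives. The median CV was 24.5% with the mean limit. Leaving out 1 replicate gave a median CV from 22.3% to 24.96%. Causes were not tested, beyond fewer peaks or samples where an alternative removes them. Scaling by summed values cannot change a ratio within a library. Comparisons with IgG were not run. No paired analysis was possible because only NF-YA libraries had values in the table.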
